A study of Mus musculus with 4 samples.

Results

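The HoxC cluster is one of the Hox gene clusters of the mouse, and its 9 genes, Hoxc4, Hoxc5, Hoxc6, Hoxc8, Hoxc9, Hoxc10, Hoxc11, Hoxc12 and Hoxc13, were described here in hindlimb bud cells. The genes were chosen by symbol, as members of the cluster, although earlier results of these data were known. All 9 were found among the 25239 genes of the count table. RNA was sequenced from hindlimb buds of FVB mouse embryos at embryonic day 11.5. Every embryo was labelled wild-type and carried the reporter hsp68-hZRS(404G>A)-mCherry at the H11 locus. In it hZRS, the human form of a limb enhancer of Shh, carries 404G>A and is linked to mCherry through hsp68, a heat shock gene whose minimal promoter is widely used in enhancer assays. After dissection, dissociation and fluorescent sorting, 2 libraries came from anterior cells positive for mCherry and 2 from central cells negative for mCherry. Both populations therefore carried the same transgene and differed in dissected domain and in reporter state together, and the parts of these in a difference cannot be told apart. The labels do not say how many embryos entered a library or whether the replicates came from separate embryos, so p-values measure only the spread between these libraries, which may be technical.

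Hox genes encode homeodomain transcription factors, and genes with the same number in different clusters are paralogues. In the limb, low-numbered genes are associated with early and proximal domains. Groups 10, 11 and 13 are associated with the upper segment, the lower segment and the end segment (autopod) of each limb, respectively. Within HoxC, Hoxc9, Hoxc10 and Hoxc11 are known for expression in the hindlimb and posterior trunk rather than the forelimb bud, and Hoxc13 is known for its role in hair and nail. In GRCm38 the cluster, from the start of Hoxc13 to the end of Hoxc4, covers chr15:102921103-103036852 on the plus strand, a span of 115.8 kb. Hoxc13 lies at the low-coordinate end and Hoxc4 at the other.

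The cluster also holds non-coding genes. Hotair, a long non-coding RNA gene on the opposite strand, lies between Hoxc12 and Hoxc11 at chr15:102944062-102947730. Mir196a-2, a microRNA gene, lies between Hoxc10 and Hoxc9 at chr15:102973350-102973434. Its product miR-196a-5p is known to act on Hoxc8 and other Hox transcripts, so its sequence is shown with the matching stretches of the longest annotated 3′ UTR of Hoxc8. Capitals mark the microRNA seed (bases 2 to 8) and, in the mRNA, the letters ACTACCT that pair with it. The microRNA sequence is from RefSeq (GRCm38.p6) and the mRNA stretches are from GENCODE M21 transcripts.
miR-196a-5p: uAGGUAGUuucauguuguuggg
Hoxc8 first match: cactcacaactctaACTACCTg
Hoxc8 second match: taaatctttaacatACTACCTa
The stretches shown lie at chr15:102992976-102992997 and chr15:102993733-102993754, and their capitals begin at bases 135 and 892 of a 3′ UTR of 966 bases. Only the sense strand of the UTR was searched, since the microRNA pairs with the mRNA. Aligned without gaps, 12 of the 22 bases pair in each. No match was present in the 3′ UTRs of the other 8 HoxC genes. Of the annotated 3′ UTRs at least as long, 3.78% held the letters within their first 966 bases. A match is a description of sequence. Mature microRNAs were not measured by these libraries, and the Mir196a-2 hairpin gene had 0 counts in both anterior libraries and in central replicate 1, and 4 in central replicate 2.

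Library totals ranged from 30080925 to 33257383 counts. A count of 3, used as the floor, corresponded to 0.08995 to 0.1023 CPM, where CPM is the usual depth-scaled count, computed here with TMM-scaled library totals. The hindlimb regulators Pitx1 and Tbx4 were abundant in both populations, at 442 ± 11.2 against 456 ± 37.5 CPM and at 231 ± 9.21 against 254 ± 19.4 CPM (anterior against central, SD, n = 2). The forelimb regulator Tbx5 had 0 and 2 counts in the anterior libraries, against 82 and 44 in the central population. Of 14610 genes that passed the filter on low counts, 22.9% passed an adjusted p-value of 0.05 in the edgeR quasi-likelihood F test and are termed called. Calls of lower expression in anterior cells made up 12.3% and calls of higher expression 10.7%. The median log2 fold change of all tested genes was -0.00866.

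Every called HoxC gene was lower in anterior than in central cells. Of the 9 members, 8 passed the filter, and 5 of these were called lower (edgeR, adjusted over all tested genes): Hoxc5, Hoxc8, Hoxc10, Hoxc11 and Hoxc13. None was called higher, and Hoxc4, Hoxc6 and Hoxc9 were not called. Both anterior libraries lay below both central libraries in CPM in each of the 8, an arrangement that 32.6% of all tested genes showed, beside 30.8% with the opposite one. Hoxc13 passed the filter through the central libraries alone and so had to differ, and 4 of the other 7 were called. The median log2 fold change of the 8 was -0.735, which describes the genes that passed and not all 9. In bulk libraries, fewer cells that express a gene and less of its RNA per cell cannot be told apart.

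**Figure D1:**
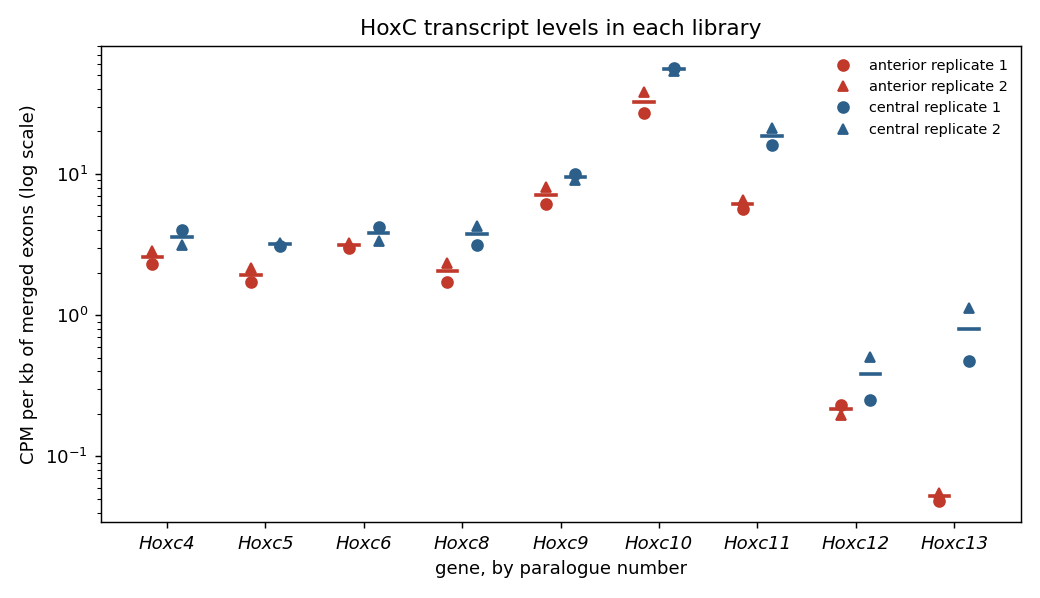
Level of each HoxC gene in every library, in CPM per kb of merged exons on a log axis (points, libraries; bars, means of 2). Hoxc10 was highest in every library, and the points of the anterior libraries lay below those of the central libraries for each gene. For Hoxc12, which was not tested, anterior replicate 1 and central replicate 1 both had 8 counts and were set apart by scaling alone.

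Hoxc10, at chr15:102966796-102971893, was the most abundant member per length in both populations. It measured 51.2 and 73.1 CPM in the anterior libraries, against 108 and 102 CPM in the central population. The groups did not overlap, and anterior replicate 1 was the lowest of the libraries. The log2 fold change was -0.76 ± 0.14 (SE), a 1.69-fold lower level (edgeR, adjusted p = 0.006). The fall was called without each library in turn, with log2 fold changes between -1.04 and -0.52.

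Hoxc11, a group 11 gene at chr15:102954427-102957708, had the largest fall among members with more than 100 counts in every library. It measured 11.5 and 13.1 CPM in anterior cells and 32.4 and 42.6 CPM in central cells, with the anterior libraries close together and the central ones further apart. The log2 fold change was -1.61 ± 0.15 (SE), or 3.05-fold lower in anterior cells (edgeR, adjusted p = 0.000137). Leaving out single libraries gave values between -1.79 and -1.40, all called.

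Hoxc13, the last gene of the cluster at chr15:102921103-102928814, was near the floor in anterior cells. It had 4 counts in each anterior library and 36 and 90 counts in the central libraries. Summed over libraries this was 8 counts (95% exact Poisson interval 3.45 to 15.8) against 126 (105 to 150). These intervals cover counting error at most and take every count as a separate event. Most small counts were even in every library, so the intervals may be too narrow. The log2 fold change was -3.91 ± 0.68 (SE, adjusted p = 0.00399 by edgeR), and it ranged from -4.40 to -3.15 when single libraries were left out. Its size rests on the few anterior counts. The central libraries also differed from each other, and the summed level of the surface ectoderm markers differed between them in the same order, at 56.9 CPM in central replicate 1 and 185 CPM in central replicate 2. Hoxc8 and Hoxc11 showed this order of the central libraries too, while Hoxc4, Hoxc6, Hoxc9 and Hoxc10 showed the opposite. A link between Hoxc13 and ectoderm was not tested.

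Hoxc12 had 8 and 6 counts in the anterior libraries, against 8 and 17 in the central population, and did not pass the filter. Fitted without a filter, its log2 fold change was -0.80 ± 1.02 (SE, adjusted p = 0.651 by edgeR), so a difference was not detectable at this depth. Hotair, its non-coding neighbour, had 233 and 156 counts in anterior cells, both below the 323 and 459 in central cells. Its log2 fold change was -1.0 ± 0.22 (SE, adjusted p = 0.0129 by edgeR). This call was lost without anterior replicate 2, where the log2 fold change was -0.82 and the adjusted p-value 0.0621.

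Of the middle genes, Hoxc8 and Hoxc9 differed in call. Hoxc8, at chr15:102990607-102994111, measured 4.89 and 6.68 CPM in anterior cells and 8.93 and 12.2 CPM in central cells. The groups were apart, and central replicate 2 was the highest. The log2 fold change was -0.87 ± 0.24 (SE, adjusted p = 0.0306 by edgeR). The call was lost without anterior replicate 1 (log2 fold change -0.66, adjusted p-value 0.14) and without central replicate 2 (-0.63, adjusted p-value 0.122). Hoxc9, a gene of posterior trunk and hindlimb at chr15:102976439-102985099, had 500 and 575 counts against 746 and 713, or 17.3 ± 3.26 against 23.1 ± 1.55 CPM (SD, n = 2). The libraries did not overlap, but the gene was not called (log2 fold change -0.42 ± 0.15 SE, adjusted p = 0.0766 by edgeR). It was called with no filter on low counts (adjusted p-value 0.0428) and without anterior replicate 2 (log2 fold change -0.62, adjusted p-value 0.0291). Over all alternatives its adjusted p-values ran from 0.0291 to 0.379.

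The low-numbered members were at similar low levels. Hoxc5, whose annotated span of chr15:102967443-103017429 includes an exon stretch of 166 bases shared with Hoxc10, had 177 and 195 anterior counts and 294 and 324 central counts, or 5.98 ± 0.948 against 9.78 ± 0.327 CPM (SD, n = 2). The log2 fold change was -0.71 ± 0.20 (SE, adjusted p = 0.0346 by edgeR). This call lay close to the threshold and was lost whenever any single library was left out, with adjusted p-values of 0.0504 to 0.183. Hoxc4, at chr15:103018934-103036852, measured 5.94 and 7.26 CPM against 10.3 and 8.06 CPM and was not called (log2 fold change -0.48 ± 0.21 SE, adjusted p = 0.151 by edgeR). Hoxc6, at chr15:102998257-103011881, had the smallest difference of the tested members. Its values of 7.26 and 7.81 CPM against 10.2 and 8.09 CPM gave a log2 fold change of -0.28 ± 0.20 (SE), with 0.358 as the adjusted p-value from edgeR. A missed threshold does not show that the levels were equal.

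By position, the largest fall among the tested genes was that of Hoxc13. This gene passed the filter through the central libraries alone and so had to differ. Measured from the start of Hoxc13, the log2 fold changes were -3.91 at 0 kb and -1.61 at 33.3 kb (Hoxc11). Hoxc12, between them at 15.7 kb, was not tested. Its unfiltered log2 fold change of -0.80 ± 1.02 (SE) was a smaller fall than that of Hoxc11. Hoxc10 followed with -0.76 at 45.7 kb, and from Hoxc9 at 55.9 kb to Hoxc4 at 113.3 kb the values lay between -0.87 and -0.28. As a description over the 8 tested genes, which share libraries and lie next to each other, distance and log2 fold change had a Pearson r of 0.81 and a Spearman rho of 0.69. Without Hoxc13 these were 0.65 and 0.54 over 7 genes.

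**Figure D2:**
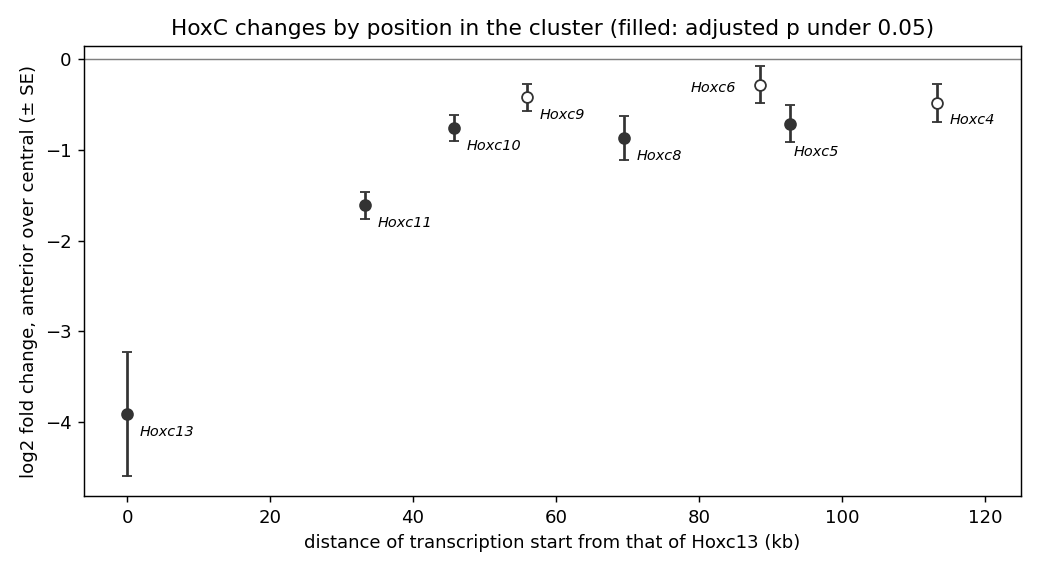
Log2 fold change (anterior over central, ± SE) of the 8 tested HoxC genes against the distance of their transcription start from that of Hoxc13, in kb. Filled points passed an adjusted p-value of 0.05; Hoxc13 and Hoxc11 were lowest, and the remaining genes lay between -0.87 and -0.28.

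Levels between genes were compared in CPM per kb of merged exons. In central cells the order was Hoxc10 (55.0), Hoxc11 (18.5) and Hoxc9 (9.52), with the library ranges of these genes apart from each other. Hoxc6, Hoxc8, Hoxc4 and Hoxc5 followed at 3.80, 3.73, 3.57 and 3.17 with each overlapping the next. Hoxc13 and Hoxc12 were lowest, at 0.802 and 0.381, and also overlapped. In anterior cells Hoxc10 again led at 32.5, but Hoxc9 (7.12) and Hoxc11 (6.08) overlapped, so Hoxc11 no longer stood above Hoxc9. The other low-level genes measured 3.13 for Hoxc6, 2.57 for Hoxc4, 2.04 for Hoxc8 and 1.93 for Hoxc5, of which the last 3 overlapped in sequence. Hoxc12 at 0.216 lay above Hoxc13 at 0.0521.

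As shares of the summed HoxC level per length, Hoxc10 took 58.2% ± 2.77 in anterior and 55.8% ± 2.84 in central cells (SD, n = 2), values that differed by less than the spread between libraries. Hoxc11 took 11.9% and 10.2% in the anterior libraries against 16.4% and 21.2% in the central ones. Hoxc9 took 12.9% and 12.7% against 10.2% and 9.14%. These shares did not overlap between populations, Hoxc11 being lower and Hoxc9 higher in anterior cells. Neither direction was particular to these genes. The shares of Hoxc4, Hoxc5 and Hoxc6 were also higher without overlap and that of Hoxc13 lower, while those of Hoxc8, Hoxc10 and Hoxc12 overlapped. Shares within a library move against each other by construction, and no background was computed for them.

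Called genes of the other clusters differed in direction. Those of HoxA were higher in anterior cells, those of HoxD were mixed, and those of HoxB were mostly lower, as in HoxC. HoxC made up 5.46% ± 1.19 of the summed Hox level per length of all 4 clusters in anterior cells, against 14.7% ± 0.651 in the central population (SD, n = 2), at 4.61% and 6.30% against 14.2% and 15.1% by library. In CPM per kb the HoxC sum was 47.7 and 63.7 in the anterior libraries, against 97.8 and 99.2 in the central population. The HoxA sum was 385 ± 26.4 against 262 ± 1.63 and the HoxD sum 575 ± 53.1 against 303 ± 21 (SD, n = 2), both higher in anterior cells in each library. The HoxB sum was low throughout, at 6.21 ± 0.478 against 9.85 ± 1.29. Of the tested HoxA genes 6 of 10 were called higher and the other 4 were not called, and of HoxD genes 3 of 8 were called higher and 2 lower. Of the 8 tested HoxB genes, Hoxb2, Hoxb4, Hoxb5 and Hoxb7 passed the filter through the central libraries alone and so had to differ. The 4 that passed in both populations were Hoxb3, Hoxb6 and Hoxb8, called lower, and Hoxb9, called higher. The median log2 fold changes were 0.487 for HoxA and 0.265 for HoxD, whose tested genes all passed the filter in both populations.

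**Figure D3:**
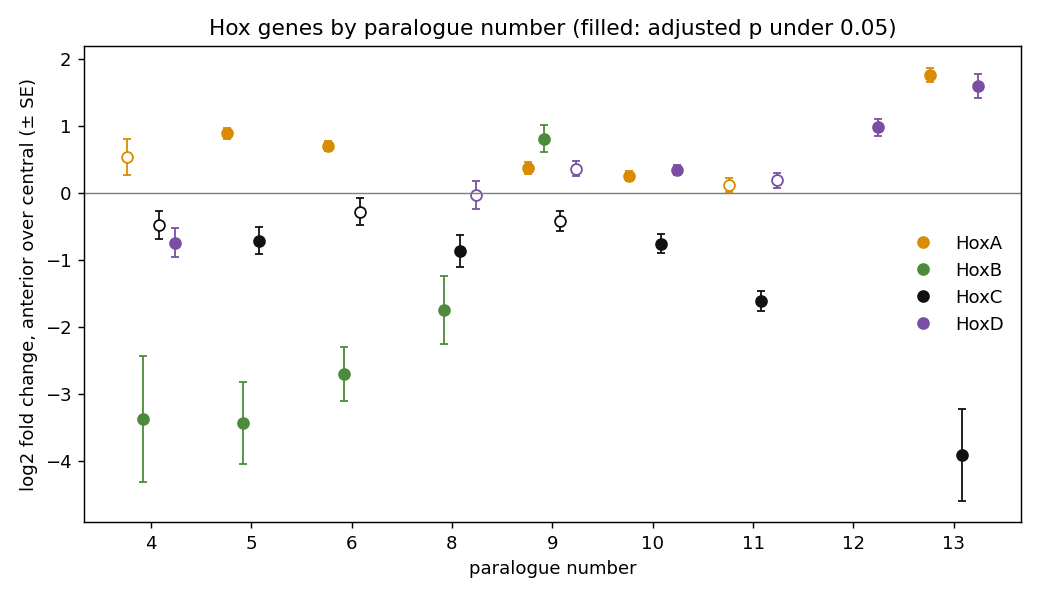
Log2 fold change (anterior over central, ± SE) of the tested genes of the 4 Hox clusters at the paralogue numbers that HoxC holds. Filled points passed an adjusted p-value of 0.05; from number 9 upward the HoxC genes lie below 0 and the HoxA, HoxB and HoxD genes above it, although Hoxa11 and Hoxd11 are near 0.

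At the high numbers, HoxA and HoxD genes did not share the direction of HoxC. In group 13, Hoxa13 measured 158 ± 4.16 CPM in anterior and 46.7 ± 8.47 in central cells, a log2 fold change of 1.76 ± 0.11 (SE) with 1.6e-05 as its edgeR adjusted p-value, and Hoxd13 measured 763 ± 122 and 253 ± 74.4 CPM (1.59 ± 0.18 SE, adjusted p-value 0.000404), while Hoxc13 had the lowest log2 fold change of the HoxC genes. Hoxd12 was higher at the anterior side, with 219 ± 30.6 CPM compared with 111 ± 21.8 (0.98 ± 0.13 SE on the log2 scale, adjusted p = 0.00123 by edgeR), beside the few counts of Hoxc12. In group 11, Hoxa11 and Hoxd11 were not called (log2 fold changes 0.12 and 0.19, edgeR adjusted p-values 0.472 and 0.246). In group 10, Hoxa10 and Hoxd10 were called higher by small amounts (log2 fold changes 0.25 and 0.34, edgeR adjusted p-values 0.0386 and 0.0091). The Hoxa10 call was lost with library size alone (adjusted p-value 0.0531) and with upper-quartile factors (0.0634), and without anterior replicate 2 (0.386), and the Hoxd10 call without anterior replicate 1 (0.0762). In group 9, Hoxa9 and Hoxb9 were called higher (log2 fold changes 0.37 and 0.81) and Hoxd9 was not (0.36, adjusted p = 0.051 by edgeR). The Hoxa9 call was lost without anterior replicate 2 (0.17) and the Hoxb9 call without anterior replicate 1 (0.10) or central replicate 2 (0.0582), while Hoxd9 was called in several alternatives, among them DESeq2 (0.0336).

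At the low numbers the paralogues parted by cluster. Hoxa5 and Hoxa6 were called higher on the anterior side by 0.89 and 0.70 on the log2 scale, while Hoxb5 and Hoxb6 were called lower with -3.43 and -2.70. Hoxb5 had 4 counts in each anterior library beside 47 and 42 in central cells. In group 4, Hoxd4 (-0.74) and Hoxb4 (-3.38) were called lower, and Hoxa4 (0.54) was not called. Group 8 held Hoxb8, called lower at -1.75, and Hoxd8, at -0.03 with overlapping libraries. The changes of Hoxb4, Hoxb5, Hoxb6 and Hoxb8 rest on 24 counts or fewer in each anterior library. Leaving out single libraries ended the calls of Hoxb4 (without anterior replicate 2, adjusted p-value 0.0555, or central replicate 1, 0.0853), Hoxd4 (without anterior replicate 1, 0.122, or central replicate 2, 0.103) and Hoxb8 (without anterior replicate 1 or either central library, 0.0604 to 0.165). The size of the Hoxb4 difference depends on the anterior libraries, which had 9 and 0 counts, at -8.53 without anterior replicate 1 and -2.46 without anterior replicate 2. For Hoxb8 it was -2.44 without anterior replicate 2.

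The difference between a HoxC gene and its paralogues was examined within each library, as the log2 ratio of its counts to the summed counts of the HoxA, HoxB and HoxD genes of the same number. Of 7 ratios with more than 10 counts in both terms in every library, 6 were lower in both anterior libraries than in both central ones. For single genes, 32.6% of all tested showed this arrangement in CPM, and no such share was computed for ratios. A ratio also falls where the paralogues are higher. Hoxc6, for example, was not called, while Hoxa6 was called higher, whereas for Hoxc11 the gene itself was called lower and Hoxa11 and Hoxd11 were not called. For Hoxc11 the ratios were -4.98 and -4.90 in anterior and -3.22 and -3.10 in central cells, a difference of -1.78 with a pooled SD of 0.0729. For Hoxc5 the difference was -1.56 (pooled SD 0.192) and for Hoxc10 it was -1.05 (0.206). Hoxc6, Hoxc9 and Hoxc8 differed by -0.87, -0.81 and -0.71. The Hoxc4 ratios overlapped, with a difference of 0.15 (pooled SD 0.349). With 2 libraries against 2, the two-sided exact permutation test cannot go below a p-value of 0.333, which these 6 ratios reached, and 0.389 after Benjamini-Hochberg adjustment over the 7. The test therefore cannot pass 0.05, and the separation is larger than the spread between libraries without a significance level.

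**Figure D4:**
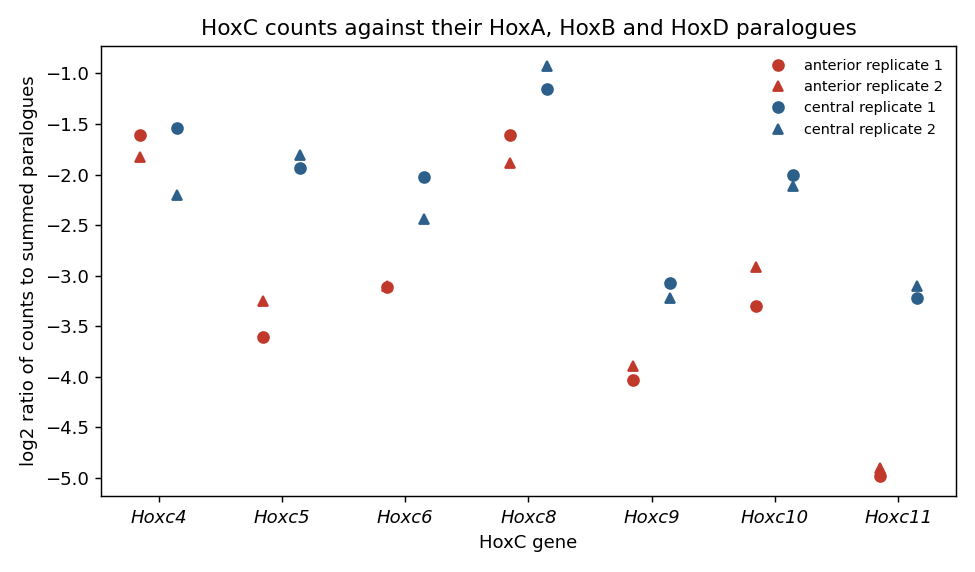
Log2 ratio of the counts of each HoxC gene to the summed counts of its same-number paralogues in the other clusters, for each library. The anterior points lie below the central points for Hoxc5, Hoxc6, Hoxc8, Hoxc9, Hoxc10 and Hoxc11, and overlap them for Hoxc4.

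Per length, Hoxc10 supplied 12.5% and 16.1% of the group 10 level in the anterior libraries, against 26.5% and 24.9% in the central population. Hoxc11 supplied 5.20% and 5.34% of the group 11 level against 15.1% and 16.7%. In group 9, Hoxc9 supplied 8.89% and 9.70% against 16.0% and 14.6%. These shares use merged exon lengths. For Hoxa9 that length was 5580 bases, beside 3226 for its longest transcript, so the size of the Hoxc9 share depends on the length used. HoxC thus held the smaller part of each of these groups in both populations, and a lower part in anterior cells.

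Within 500 kb on either side of the cluster, 20 annotated genes were tested and 3 were called, no larger a share than the 22.9% of all tested genes, and the median log2 fold change was 0.0234. Calcoco1, the nearest called gene at 198.9 kb beyond Hoxc13, was lower on the anterior side, with 36.7 ± 3.55 CPM compared with 56.2 ± 3.95 (SD, n = 2). Its log2 fold change was -0.61 ± 0.10 (SE, adjusted p = 0.00298 by edgeR). Nfe2, a transcription factor gene of red cells and platelets at 211.4 kb beyond Hoxc4, was higher at 6.99 ± 4.72 against 1.58 ± 0.0338 CPM, where the red blood markers were also higher. Its call was lost with limma-voom (adjusted p-value 0.0544) and without anterior replicate 2 (log2 fold change 1.21, adjusted p-value 0.095, beside 2.14 with all libraries). Sp1, at 484.7 kb, was called at an adjusted p-value of 0.047 with a log2 fold change of 0.22, and lost the call with library size alone (0.0816), with upper-quartile factors (0.0789), with a mean count of at least 50 (0.0572) and without either anterior library or central replicate 1 (0.103 to 0.235).

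Genes that work with Hox proteins were described from listed groups. TALE homeodomain cofactors bind DNA together with Hox proteins. Of the 9 tested, 8 passed the filter in both populations, and 5 of these were called lower in anterior cells. The other 4 of the 9 were not called. Among them Meis3 passed through the central libraries alone, with 64 and 0 anterior counts beside 149 and 138 central counts. The median log2 fold change of all 9, Meis3 included, was -1.25. Meis2 had 368 and 60 anterior counts and 3929 and 4230 central counts (log2 fold change -4.27 ± 0.46 SE, adjusted p = 0.000329 by edgeR), and Meis1 fell by 4.46 on the log2 scale. Anterior replicate 1 held more counts of both than replicate 2, the opposite order to Hoxc10. Without anterior replicate 1 the values were -5.98 for Meis2 and -5.62 for Meis1, and without anterior replicate 2 they were -3.55 and -3.87. Upstream regulators of Hox expression were mixed, with 3 called lower and 2 higher of 7 tested. Rarb, a retinoic acid receptor gene, was lower with 126 and 47 anterior counts beside 429 and 393 central counts (-2.26 ± 0.34 SE on the log2 scale, adjusted p = 0.00205 by edgeR), and at -3.02 without anterior replicate 1. Cyp26a1, which encodes an enzyme that breaks down retinoic acid, had 0 and 4 counts against 27 and 53 and passed the filter through the central libraries alone. Cyp26b1, which encodes an enzyme of the same function and was far more abundant, was higher with 674 ± 40.1 against 360 ± 54.4 CPM (0.90 ± 0.10 SE on the log2 scale, adjusted p = 0.000366 by edgeR). Gdf11, a signalling gene of trunk-to-tail patterning, was also called higher (log2 fold change 0.24, adjusted p = 0.0293 by edgeR), and Rara, another retinoic acid receptor gene, lower (-0.48, adjusted p = 0.00809 by edgeR).

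Polycomb and trithorax genes, whose products maintain repressed or active states of Hox clusters, mostly did not pass the test. Of 21 tested, 2 were called lower, 2 higher and 17 were not called, a share near the background, with a median log2 fold change of -0.00804. Phc2 was lower with 121 ± 1.95 CPM compared with 203 ± 3.87 (-0.74 ± 0.06 SE on the log2 scale, adjusted p = 7.34e-05 by edgeR). Of the hindlimb genes, Isl1 was called lower and Pitx1 and Tbx4 were not called. Isl1 had 152 and 20 anterior counts and 679 and 765 central counts.

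Among 68 tested genes of these lists and of the other Hox clusters, those nearest in pattern to Hoxc10 were Pbx3, Hoxd4 and Phc2. Their Euclidean distances to it, over the centred log2 values (CPM plus 0.5) of the 4 libraries, were 0.349, 0.358 and 0.386. The log2 fold changes were -0.62, -0.74 and -0.74, beside -0.76 for Hoxc10.

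Markers of several other cell types moved in the same direction as HoxC. Summed levels are given here with the lower library of a group first, while counts are in replicate order. The limb mesenchyme markers were high in all libraries, at summed levels of 3590 and 3650 CPM in anterior and 2390 and 2580 CPM in central cells. All 10 of them passed the filter in both populations, and most went the opposite way to HoxC. Of these, 6 were called higher in anterior cells, 1 was called lower and 3 were not called. Some markers passed the filter through the central libraries alone, so that a lower anterior level was fixed, and calls are counted here among those that passed in both populations. Of 7 myogenic markers 6 passed through the central libraries alone and Met, which passed in both, was called lower, at 2.35 and 4.17 against 142 and 143 CPM in sum, with Pax7 and Myog at 0 in both anterior libraries. Markers of somite and flank mesoderm were called lower in 7 of 7 tested genes, all of which passed in both, at 52.2 and 66.0 against 390 and 435 CPM. Ectoderm markers were called lower in 2 of 3, with 7 more that passed through the central libraries alone (10.4 and 11.1 against 56.9 and 185 CPM), chondrogenic markers in 4 of 5 (301 and 412 against 1190 and 1510 CPM) and endothelial markers in 4 of 7 (13.6 and 20.1 against 38.2 and 47.9 CPM). Neural crest and Schwann precursor markers were mixed, at 10.9 and 14.8 against 24.4 and 29.2 CPM. Erbb3 was called lower among the 4 that passed in both, Mitf (251 and 113 against 100 and 131 counts) and Ednrb (28 and 40 against 12 and 12 counts) were not called, and Sox10 and Foxd3 were at 0 in both anterior libraries, against 70 and 18 and against 8 and 4 counts. Neuronal markers, of interest because the neural tube expresses HoxC genes, summed to 9.0 and 12.5 CPM in anterior and 6.77 and 8.15 CPM in central cells, with 5 of 10 at 0 in both anterior libraries and 3 of 10 at 0 in both central ones. Olig2 and Neurog2 were at 0 in all 4 libraries, Nkx6-1 and Neurod1 had 0 anterior and at most 4 central counts, and Stmn2 (219 and 82 against 72 and 26 counts) and Mnx1 (97 and 64 against 43 and 85 counts) were present in both populations. Red blood markers were called higher in 3 of 3 that passed in both, with 3 more that passed through the anterior libraries alone, at 3290 and 8380 against 5.0 and 7.91 CPM. Cell cycle genes were called higher in 5 of 8, and dissociation stress genes lower in 2 and higher in 1 of 9. The part of these cell types and states in the HoxC differences was not tested. Removal of the red blood genes before scaling left the number of called HoxC genes at 5.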

How the data were processed

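RNA was sequenced from 4 libraries of sorted hindlimb bud cells, 2 anterior and 2 central, extracted as total RNA per the labels. The authors deposited one table of whole-number read counts per gene symbol, not normalized. Per the submitters' processing notes, STAR 2.7.9a, HTSeq, DESeq2 and the mouse build mm10 were used; the annotation and strand setting are not given in the sources used here, which leaves the split of reads between overlapping or antisense genes uncertain. Of counts from 1 to 10, 72.8% to 75.7% were even, and a fit was also made on halved counts.

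The table of 25239 genes was tested in R 4.3.3 by edgeR 4.0.16: default filterByExpr, TMM scaling, and the quasi-likelihood F test without a block, with Benjamini-Hochberg adjustment over all 14610 tested genes at a threshold of 0.05. Standard errors were derived from the size of each log2 fold change and its F statistic (size over root F). Groups and replicate numbers came from the sample titles, and 0 count columns stayed unmatched. Positions and merged exon lengths came from GENCODE M21 (GRCm38, the same assembly as mm10). The pipeline was tested on simulated data.

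The members and gene lists were chosen with earlier results of these data known. Genes named are the members, their same-number paralogues, non-coding genes of the cluster, called neighbours within 500 kb, the 2 called genes with the largest absolute log2 fold change in each list, and the 3 listed genes nearest in pattern to the member highest per length. A few genes that this rule or the lists hold are not reported here. The markers named for a cell type, and a few further genes described beside a list, fall outside that rule and were chosen after their values were seen. The alternatives were other scalings (DESeq2 1.42.0 size factors, library size, upper quartile), the DESeq2 Wald test, limma-voom (limma 3.58.1), other count filters, a replicate block, halved counts, removal of red blood genes, a threshold of 0.01, leaving out each library, a count of 1 added to ratios, and other transcript lengths. The length of the RefSeq-matched transcript was added after the data were seen.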

Additional observations from a re-analysis of the deposited data

How the results depend on the processing

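Of the 8 tested HoxC genes, 5 were called, and 5 were called under each other scaling, both other tests, halved counts and removal of red blood genes. With no low-count filter 6 were called, and with a mean count of at least 50 there were 4, where Hoxc13 was not tested. All log2 fold changes of the tested HoxC genes stayed negative in every one of these fits. With single libraries left out, 3 to 5 HoxC genes were called: 3 without anterior replicate 1 or without central replicate 2, and 5 without anterior replicate 2, when Hoxc9 was called and Hoxc5 was not. The lone library of a group is then assumed to vary like the other group. At 0.01, 3 HoxC genes, 11 of 26 other Hox genes (19 at 0.05), 1 flanking gene and 1690 genes in all (3351 at 0.05) were called. Leaving out single libraries gave 1941 to 3510 genes in all, with 1941 without anterior replicate 2, and 1 to 4 flanking genes, with 1 without anterior replicate 2. Without a filter 5 flanking genes were called. The causes were not tested.

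Replicate numbers occur in both groups, but nothing in the labels ties same-numbered libraries together, and replicate differences correlated across genes at a Pearson r of 0.0463. With a replicate block, 5 HoxC genes, 20 other Hox genes, 4 flanking genes and 3586 genes in all were called.

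The difference in ratio to paralogues for Hoxc4 ranged from -0.18 to 0.48 when single libraries were left out, changing sign to -0.18 without central replicate 2, and that for Hoxc6 from -1.08 to -0.66. The share of Hoxc10 was 55.2% in anterior cells by longest transcript, and 54.5% in anterior and 52.9% in central cells by RefSeq-matched transcript, a length chosen after the data were seen. Values near 0 that changed sign were Hoxd8, from -0.429 to 0.286 with single libraries left out (0.286 without anterior replicate 1, 0.088 without central replicate 2), and Hoxa11, from -0.059 (without anterior replicate 2) to 0.281. Hoxc12 and the anterior level of Hoxc13 are limited by depth.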
